A study of Mus musculus with 16 samples.

Results

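Mouse embryonic stem cells that had spent 2 days in auxin, an agent used here to degrade the RNA helicase DDX10, were compared with untreated cells of the same line. The comparison rests on 4 of the 16 libraries of the series, 2 per group. It takes in every gene whose normalized count averaged at least 10 over the 16 libraries, which left 13355 of the 14552 genes in the deposited table. The groups were set by the labels, and no measured outcome chose them.

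The cells were E14, a mouse embryonic stem cell line, and every group carried the genotype Ddx10-AID, Tir1. AID is a degron tag that the plant F-box protein TIR1 recognises once auxin is present, so that the tagged protein is degraded. The 2-day cells had been in 500 µM indole-3-acetic acid (auxin) for 2 days, and the untreated cells had received none. As neighbours in time, cells that had 1 day of auxin are set beside them where stated, and so are cells kept for 2 days without auxin after 2 days in it (the withdrawal group). All groups grew on gelatin with 15% serum, 1000 U/mL LIF, 3 µM of the GSK3 inhibitor CHIR99021 and 1 µM of the MEK inhibitor PD0325901, so both inhibitors were present in treated and untreated cells alike. The labels give neither the number of clones nor whether replicate libraries stem from different cultures. The p-values therefore measure the spread between these libraries, which may be technical. For each gene 1 spread was pooled over all 16 libraries, so it does not allow for pairs less alike than others. No untagged cells given auxin were analysed here, and an effect of auxin itself and the loss of DDX10 cannot be told apart.

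DDX10 is a DEAD-box helicase of the nucleolus; its yeast counterpart, Dbp4, acts in the early processing of the small ribosomal subunit. When ribosome assembly fails, unassembled ribosomal proteins can bind MDM2, the ubiquitin ligase that normally keeps p53 low, and p53 then accumulates and switches on genes of arrest, repair and death. Mouse embryonic stem cells also hold a small fraction of cells that express genes of the 2-cell embryo, among them the Zscan4 family.

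The values are normalized counts, which are relative shares of each library after scaling; the amount of mRNA per cell was not measured. Normalized counts summed to 14.9 and 14.9 M in the 2-day libraries and 16.9 and 16.4 M in the untreated libraries. The size of 1 read, read from the steps between low values, put the depth at about 16.7 and 16 M reads at 2 days and 13.5 and 16 M in untreated cells. The untreated pair was the less alike of the groups compared. The SD of the log2 difference between replicates was 0.38 in the 2-day pair and 0.62 in the untreated pair. At least 2-fold differences held for 379 genes in the 2-day pair and 1090 in the untreated pair. The 1-day pair was also less alike than the 2-day pair, with an SD of 0.53 and 774 such genes. All 8 stem cell markers were tested, and their sum was 103523 and 99373 in the 2-day libraries, against 108740 and 104808 in the untreated libraries. Of 7 fibroblast markers 4, Col1a2, Col3a1, Dcn and Postn, are not among the genes in the table. The other 3 were tested, and their sum was 142 and 111 in the 2-day libraries, against 123 and 131 in the untreated libraries.

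After 2 days of auxin, 2806 genes rose (21.0% of those tested) and 3179 fell (23.8%) in a limma fit on log2(value + 1), at a Benjamini-Hochberg adjusted p below 0.05. Together they made up 5985 genes (44.8%). The 4 libraries did not overlap between groups for 9498 genes (71.1%). At least 2-fold changes went mostly upward, with 1199 genes higher (8.98%) and 677 lower (5.07%). The median change over all genes was -0.01 on the log2 scale and the median standard error (SE) 0.158. Groups of p53 targets, 2-cell stage genes and cell adhesion genes leaned upward. Replication, mitosis, amino acid synthesis, tRNA charging, glycolysis and ribosome assembly leaned downward. Because so many genes were called, each count of list members stands against these background shares. Where a list has 0 members called in a direction, limma also gave 0 at an unadjusted p below 0.05, except 2 lysosomal genes (Gla and Gabarapl1) and 1 Nodal pathway gene (Lefty1) that were lower.

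**Figure D1:**
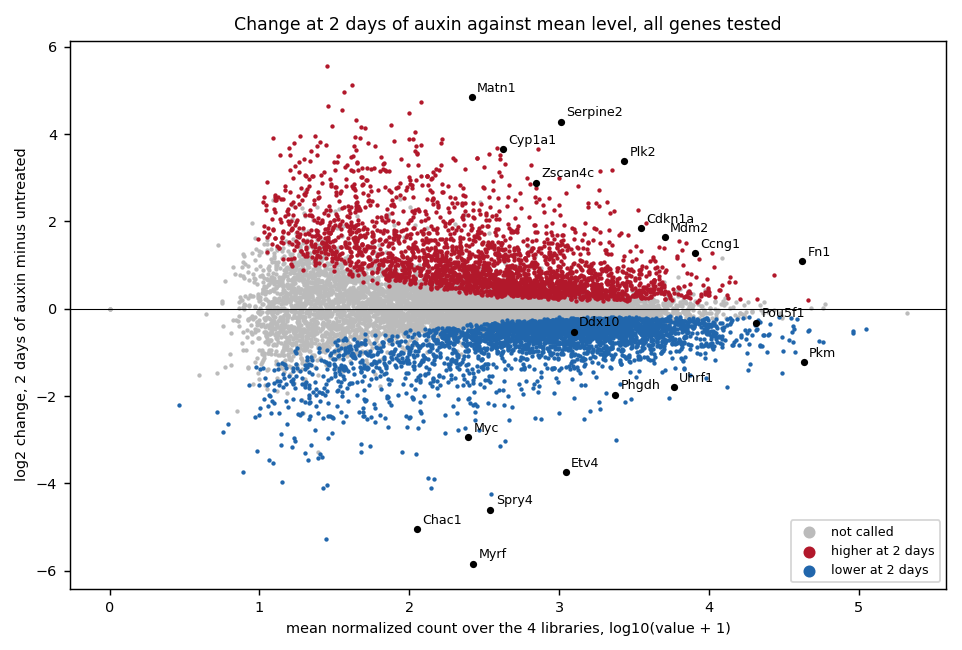
Log2 change at 2 days of auxin minus untreated (vertical axis) against the mean normalized count over the 4 libraries, as log10(value + 1) (horizontal axis), for the 13355 genes tested. Red and blue points passed the limma test, and labelled black points are genes named in the text, with Matn1 at 4.85 and Myrf at -5.84 near the ends of the range.

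The targeted gene was checked first. Ddx10 mRNA (chr9:53098635-53248053, minus strand, GRCm38) was at 997 and 1041 normalized counts in the 2-day libraries, against 1433 and 1509 in the untreated libraries. The groups did not overlap, and the change was -0.53 (SE 0.11, limma adjusted p = 0.0013). The degron acts on the protein, which was not measured here, so this mRNA value does not check the depletion. 

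The largest falls were ranked among called genes averaging at least 50 whose groups did not overlap, leaving out predicted-gene names. They included signalling, transport and stress genes. Myrf, a membrane-tethered transcription factor, was at 5.67 and 8.90 in the 2-day libraries and 282 and 763 in the untreated libraries, a log2 change of -5.84 (SE 0.36, adjusted p = 5.7e-08). Slc16a3, the lactate exporter MCT4, was at 23.5 and 38.8 at 2 days and 359 and 973 in untreated cells (log2 -4.25, adjusted p = 1.1e-06). The rule admits only genes whose groups do not overlap, so the separation of both genes was set by the selection. Their untreated libraries differed between themselves more than 2-fold. Nkx1-2, a homeobox factor, fell by 4.11, Aire, which drives tissue-restricted antigens in the thymus, by 3.89, and Itga9, an integrin chain, by 3.03 on the log2 scale (adjusted p = 2.1e-06, 7e-07 and 1.6e-07).

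The largest rises by the same rule included extracellular and epithelial genes. Serpine2, a secreted protease inhibitor, was at 1890.0 and 1981 in the 2-day libraries, against 131 and 74.2 in the untreated libraries. That is a log2 change of 4.28 (SE 0.22, adjusted p = 1.6e-08), with the 2-day pair far above the untreated pair. Matn1, a cartilage matrix protein, stood at 503 and 480.3 at 2 days and 47.2 and 5.09 in untreated cells (log2 4.85, SE 0.63, adjusted p = 3.3e-05). The untreated libraries were far apart, and the lack of overlap with the 2-day pair was required by the rule. Ptgs2, the inducible cyclooxygenase, rose by 3.89 (adjusted p = 1.2e-05) while Ptgs1, its constitutive relative, fell by 3.32 (adjusted p = 2.8e-06). Among abundant genes, the matrix protein fibronectin, Fn1, was at 53121 and 60366 at 2 days and 26348 and 27044 in untreated cells (log2 1.08, adjusted p = 4.6e-08). The autophagy kinase gene Ulk1 was at 10380.1 and 10391 at 2 days and 4121 and 3206 in untreated cells (log2 1.51, adjusted p = 1.7e-07).

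Most listed p53 targets of the feedback, arrest and death classes rose. Of 8 tested genes of the p53 feedback loop, 7 rose and 0 fell, with a median change of 1.00. Of 12 arrest genes 9 rose and 0 fell (median 0.82), and of 15 death genes 14 rose and 0 fell (median 1.34). Over all genes tested, 21.0% rose and the median change was -0.01. These lists hold known p53 targets and were written with earlier results of these libraries known.

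Trp53 itself, which encodes p53, was at 11089.9 and 10615 at 2 days and 9228 and 8372 in untreated cells, a change of 0.30 (SE 0.06, adjusted p = 0.0016). Mdm2, the ligase that degrades p53, was at 7719.8 and 7623 in the 2-day libraries, against 2475 and 2434 in the untreated libraries (log2 1.64, SE 0.09, adjusted p = 1.9e-08). For both genes the 2-day pair lay above the untreated pair. Ccng1, a cyclin G that feeds back on p53, was at 11592 and 11056 at 2 days and 4749.6 and 4589 in untreated cells (log2 1.28, adjusted p = 1.6e-08). Ppm1d, a phosphatase that damps p53, did not pass the test at 808 and 707 in 2-day and 721 and 646 in untreated cells (log2 0.15, adjusted p = 0.21).

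The arrest gene Cdkn1a (chr17:29090976-29100727, plus strand), encoding the CDK inhibitor p21, was at 5492 and 5486 at 2 days, against 1523 and 1537 in untreated cells. The replicates lay within a few percent of each other, and the log2 change was 1.84 (SE 0.08, adjusted p = 4.6e-09). Plk2, a polo-like kinase, was at 5052 and 4811 at 2 days and 620.3 and 361 in untreated cells (log2 3.38, adjusted p = 1.6e-08). Btg2, an antiproliferative factor, was at 2567 and 2636 at 2 days and 654 and 404 in untreated cells (log2 2.34, adjusted p = 1.4e-07). Among death genes, Perp, a membrane protein of desmosomes, was at 1312 and 1364 at 2 days, against 135 and 80.4 in untreated cells (log2 3.67, SE 0.18, adjusted p = 1.3e-08). The death receptor gene Fas reached 28.4 and 38.4 at 2 days, while the untreated libraries held 0 and 3.81 (adjusted p = 0.00037). Bbc3 (PUMA) and Pmaip1 (NOXA), which encode triggers of mitochondrial death, rose by 1.39 and 1.34 (adjusted p = 1.2e-05 and 8.6e-05). Bax, the pore-forming effector, rose less, by 0.29 (adjusted p = 0.026), and lost the call without untreated replicate 2 (adjusted p = 0.14) or 2-day replicate 1 (adjusted p = 0.20).

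Repair and metabolic targets were mixed. Of 18 tested, 11 rose and 2 fell (median 0.66), or 1 fell without untreated replicate 2 or either 2-day replicate. Ephx1, an epoxide hydrolase, was at 1077 and 1075 at 2 days and 204 and 88.7 in untreated cells (log2 2.99, adjusted p = 9.9e-07). Cpt1c, a carnitine palmitoyltransferase relative, rose by 1.83 and the DNA polymerase gene Polk by 1.20 (adjusted p = 1.9e-08 and 9.8e-07). Polh, which encodes another lesion-bypass polymerase, fell by 0.88 (adjusted p = 0.00087).

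**Figure D2:**
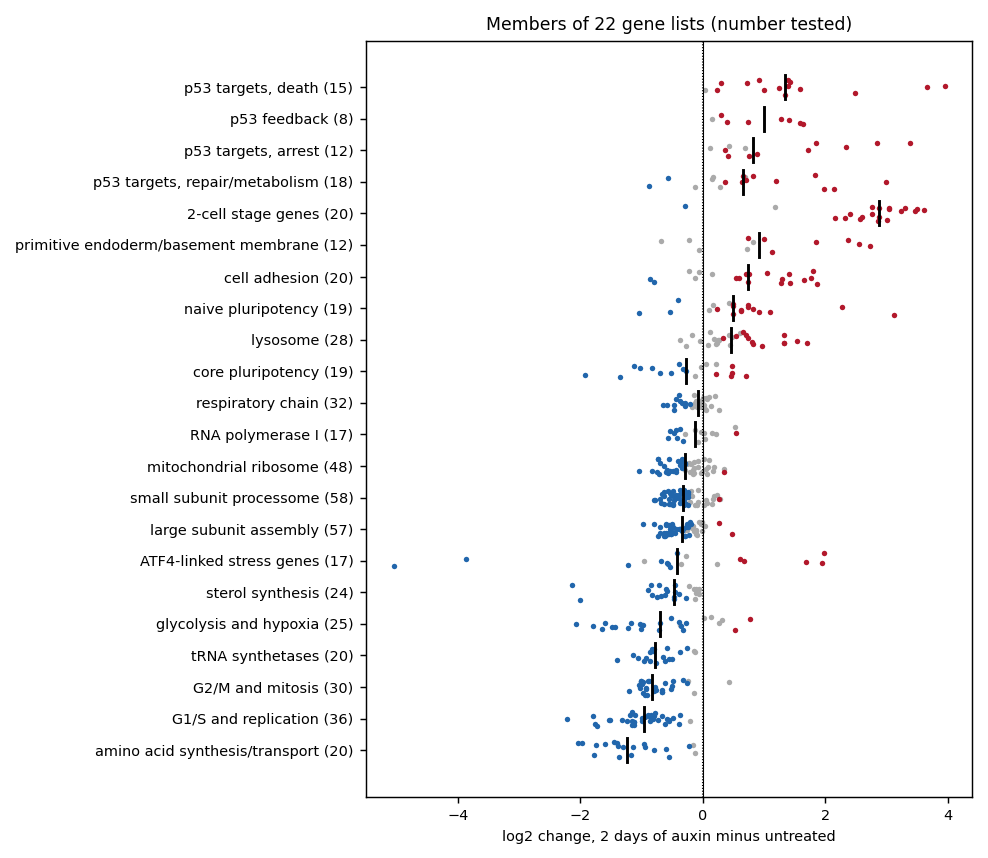
Log2 change at 2 days of auxin minus untreated (horizontal axis) for each tested member of 22 gene lists (vertical axis, number tested in brackets). Red and blue points passed the limma test, grey points did not, black bars are list medians and the dotted line is the median of all genes, -0.01; the 2-cell list lies farthest right, with a median of 2.87, and the amino acid list farthest left, at -1.24.

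Genes of DNA replication and mitosis fell almost without exception. Of 36 G1/S and replication genes 35 fell and 0 rose, with a median change of -0.96; of 30 G2/M and mitosis genes 27 fell and 0 rose, with a median of -0.84. Without untreated replicate 1 the mitosis count that rose was 1. The background share of genes that fell was 23.8%. The replication gene that did not pass was Pole, and the mitotic ones were Cenpe, Anln and Pttg1. Without untreated replicate 1, Pttg1, the securin that holds sister chromatids together, was higher by 0.94 (adjusted p = 0.0022).

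Uhrf1, which recruits the maintenance DNA methyltransferase to replicated DNA, was at 2642 and 2525 at 2 days, against 9358 and 8634 in untreated cells (log2 -1.80, SE 0.07, adjusted p = 3.8e-09). Pcna, the sliding clamp of DNA polymerases, was at 3963 and 3846 at 2 days and 11145 and 11076 in untreated cells (log2 -1.51, adjusted p = 3.8e-09). Ccne1, the G1/S cyclin E, was at 1231 and 1133 at 2 days and 4139.8 and 3734 in untreated cells (log2 -1.73, adjusted p = 1.3e-08). In each of these genes both 2-day libraries lay below both untreated libraries, and replicates were close. Cdc6, a loader of the replicative helicase, fell by 1.76, the helicase subunit gene Mcm6 by 1.13 and Rrm2, a subunit of ribonucleotide reductase, by 1.16. The mitotic cyclin gene Ccnb1 was at 3258 and 3088 at 2 days, against 6591 and 6136 in untreated cells (log2 -1.003, adjusted p = 1.1e-07). Kif20a, a kinesin of cell division, was at 2205 and 2221 at 2 days and 4612 and 4184 in untreated cells (log2 -0.99, adjusted p = 8.6e-08).

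Promoters of mitotic genes are known to carry the cell cycle homology region (CHR), TTTGAA, through which the DREAM and B-MYB complexes act. In RefSeq windows of 250 bases before to 50 after a gene's start (GRCm38.p6), found for 9825 genes tested, the letters TTTGAA on either strand occurred in 17 of 25 mitotic genes with a window (68%), 4 of 28 replication genes (14.3%) and 13.9% of all. A match of these letters is a description, not a site or a cause. Below are stretches before the start of 3 mitotic genes that hold the motif there, picked for a small p. Mitotic genes with a smaller p, such as Kif20a, are not shown. The stretches lie at chr10:69352913-69353013, chr9:70421686-70421751 and chr11:99024333-99024398, all read on the minus strand, with the motif in capitals.
Cdk1: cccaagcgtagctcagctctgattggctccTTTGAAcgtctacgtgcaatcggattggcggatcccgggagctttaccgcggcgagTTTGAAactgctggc
Ccnb2: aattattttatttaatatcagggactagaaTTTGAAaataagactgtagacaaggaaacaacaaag
Top2a: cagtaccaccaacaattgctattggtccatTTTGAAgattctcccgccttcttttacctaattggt
Cdk1, the mitotic kinase, was at 1742 and 1732 at 2 days and 3524 and 3325 in untreated cells (log2 -0.98, adjusted p = 2.4e-07). Ccnb2, its cyclin partner, was at 1051 and 970.3 at 2 days and 2221 and 1859.6 in untreated cells (log2 -1.01, adjusted p = 1.2e-06). Top2a, the topoisomerase of dividing cells, was at 5597 and 5376 at 2 days and 10561 and 11499 in untreated cells (log2 -1.01, adjusted p = 3.3e-06). The pairs of the 3 genes lay apart, with the 2-day libraries lower.

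Of 18 cyclins and CDK inhibitors tested 4 rose (22.2%) and 5 fell (27.8%), near the 21.0% and 23.8% of all genes. Beside Cdkn1a, the CDK4/6 inhibitor gene Cdkn2b was at 279 and 251 at 2 days and 79.7 and 53.1 in untreated cells (log2 2.01, adjusted p = 5.4e-06). Rb1, encoding the retinoblastoma protein, rose by 1.12 and its relative Rbl2 by 0.94 (adjusted p = 0.0011 and 0.00081). Cdk6 fell by 1.74 (adjusted p = 1.9e-06) and the cyclin gene Ccnd1 by 0.65 (adjusted p = 0.0015).

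Genes of amino acid synthesis and uptake that the stress factor ATF4 is known to drive fell. Of 20 tested, 18 fell, 12 of them at least 2-fold, and 0 rose (median -1.24). All 20 aminoacyl-tRNA synthetases tested, which charge tRNAs in the cytoplasm, had negative changes, and 18 of them passed (median -0.77). In contrast, the list of ATF4-linked stress regulators split, with 5 higher and 8 lower of 17 (median -0.43).

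The binding site of ATF4 with its C/EBP partners is known to hold letters of the form TGATGNAA. On either strand, these letters occurred in 4 of 16 amino acid genes with a RefSeq window (25%), 5 of 12 tRNA synthetase genes (41.7%) and 6 of 15 stress genes (40%), against 2.56% of the 9825 windows. The matches, in capitals, are shown for members of these lists with sites before the gene's start that changed the most or are textbook targets; they were picked after the values were seen. They lie at chr2:119351019-119351086 (plus strand), chr7:126625543-126625610, chr3:50443623-50443709 and chr6:7693210-7693262 (minus strand), in GRCm38.p6.
Chac1: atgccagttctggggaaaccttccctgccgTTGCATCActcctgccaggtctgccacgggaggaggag
Nupr1: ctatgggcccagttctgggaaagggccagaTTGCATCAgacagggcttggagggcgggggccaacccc
Slc7a11: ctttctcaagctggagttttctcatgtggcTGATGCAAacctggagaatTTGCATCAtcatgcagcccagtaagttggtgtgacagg
Asns: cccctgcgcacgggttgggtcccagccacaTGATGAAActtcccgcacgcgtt
Chac1 and Nupr1 hold the letters on the opposite strand, and Slc7a11 holds them once on each strand. Chac1, which breaks down glutathione, was at 3.57 and 6.52 at 2 days, against 118 and 316 in untreated cells (log2 -5.05, SE 0.42, adjusted p = 6.6e-07). Nupr1, a small stress-induced nuclear protein, was at 23.4 and 10.6 at 2 days and 220.4 and 271 in untreated cells (log2 -3.87, adjusted p = 8.8e-06). For both genes each 2-day library lay below each untreated library. Slc7a11, the cystine importer, stood at 15.0 and 18.4 at 2 days and 39.6 and 69.9 in untreated cells (log2 -1.61, adjusted p = 0.0082). Asns, asparagine synthetase, stood at 10522 and 9968 at 2 days and 12284 and 11743 in untreated cells (log2 -0.23, adjusted p = 0.028). The Asns call was lost without untreated replicate 1 (adjusted p = 0.11) or either 2-day replicate (0.051 and 0.16), and that of Slc7a11 without untreated replicate 2 (0.079) or 2-day replicate 1 (0.054). With upper-quartile scaling Asns had an adjusted p of 0.12.

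Within the amino acid list, the 3 enzymes of serine synthesis all fell. Phgdh, its first enzyme, was at 925 and 991 at 2 days, against 3601 and 3926 in untreated cells (log2 -1.97, SE 0.07, adjusted p = 3.8e-09). Psat1, the next enzyme, was at 2090.4 and 2137 at 2 days and 9066 and 8326 in untreated cells (log2 -2.04, adjusted p = 3.8e-09), and Psph, the last, fell by 1.15 (adjusted p = 1.6e-06). Shmt2 and Mthfd2, of mitochondrial folate metabolism, fell by 1.45 and 1.74 (adjusted p = 1.4e-08 and 1.1e-07). Slc7a5, which imports large neutral amino acids, fell by 0.96 (adjusted p = 1.1e-06). Among tRNA synthetases, Nars, for asparagine, was at 2830.2 and 2771 at 2 days and 7189 and 7558 in untreated cells (log2 -1.40, SE 0.06, adjusted p = 4.6e-09). In these genes the 2-day and untreated libraries lay well apart.

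Atf4 mRNA itself was at 3859 and 3513 at 2 days and 4862 and 5904 in untreated cells (log2 -0.54, adjusted p = 0.00042). The stress factor gene Ddit3 (CHOP) went the other way, at 288 and 297 at 2 days and 71.3 and 78.0 in untreated cells (log2 1.96, adjusted p = 4.9e-06). Ddit4, an inhibitor of mTORC1 that p53 also drives, was at 1419 and 1414 at 2 days and 381 and 340.3 in untreated cells (log2 1.97, adjusted p = 2.1e-08). Sesn2, another brake on mTORC1 and a p53 target too, rose by 0.68 (adjusted p = 3.6e-06). Trib3, a pseudokinase that ATF4 induces, fell by 0.68 (adjusted p = 0.0013).

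Genes of ribosome assembly fell by small amounts. Of 58 small subunit processing factors 41 fell and 1 rose (median -0.33), and of 57 large subunit assembly factors 39 fell and 2 rose (median -0.34). The small subunit count that rose was 0 without untreated replicate 2 or 2-day replicate 1. None of these fell 2-fold. Bms1, a GTPase of the small subunit processome, was at 2401 and 2533 at 2 days and 3959 and 4613 in untreated cells (log2 -0.79, adjusted p = 2.5e-05). Bop1, a factor of large subunit rRNA processing, was at 2054 and 1986 at 2 days and 3449.5 and 3144 in untreated cells (log2 -0.71, adjusted p = 3.6e-06). Ncl, nucleolin, was at 19998 and 21948 at 2 days and 35061 and 48292 in untreated cells (log2 -0.97, adjusted p = 5e-05). Of 17 genes of RNA polymerase I and its factors 7 fell and 1 rose (median -0.13). The member that rose was Baz2a, which silences rRNA genes, by 0.54 (adjusted p = 0.0011), and Rrn3, the initiation factor, fell by 0.48 (adjusted p = 0.00015).

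Of 40 DEAD-box and DEAH-box helicase genes, Ddx10 included, 22 fell and 4 rose (median -0.24). Dhx16, a splicing helicase, was at 8805 and 8078 at 2 days and 4288 and 3326 in untreated cells, the largest rise in that list (log2 1.16, adjusted p = 4.8e-07). The nucleolar helicase gene Ddx21 fell by 0.70 (adjusted p = 0.00015).

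Myc (chr15:61985391-61990374, plus strand), a driver of growth and ribosome genes, was at 46.6 and 67.1 at 2 days, against 438 and 435 in untreated cells (log2 -2.94, SE 0.17, adjusted p = 4.2e-08). Every 2-day library was far below every untreated library. Mycn, its relative, did not pass, at 2501 and 2606 at 2 days and 2481 and 1787 in untreated cells (log2 0.28, adjusted p = 0.29). Over the MYC network list 9 of 20 fell and 2 rose, while the median, -0.03, stayed near the -0.01 of all genes. The 2 that rose were Mxd4, an antagonist of MYC, by 2.25 and Tert, the telomerase subunit, by 1.26 (adjusted p = 3.5e-05 and 2.1e-05).

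Of 25 genes of glycolysis and the hypoxia response, 18 fell and 2 rose (median -0.69). Ldha, which makes lactate, was at 6128 and 5637 at 2 days, against 18500.0 and 22516 in untreated cells (log2 -1.80, SE 0.09, adjusted p = 1.2e-08). Tpi1, triosephosphate isomerase, was at 1151 and 1145 at 2 days and 4417 and 5248 in untreated cells (log2 -2.07, adjusted p = 1.2e-08). Pkm, pyruvate kinase, was at 25849.8 and 25369.5 at 2 days and 56635 and 63038 in untreated cells (log2 -1.22, adjusted p = 1.2e-08). Pairs did not overlap in any of these. Eno1 and its near-identical copy Eno1b both fell, by 1.48 and 1.40, but reads may be split between such copies, so neither value is certain. The genes that rose were Slc2a3, a glucose importer, by 0.77 and the hexokinase gene Hk1 by 0.53 (adjusted p = 5e-06 and 0.00089).

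Sterol synthesis genes fell in 17 of 24 cases and rose in 0 (median -0.48), with Idi1, isopentenyl diphosphate isomerase, at 699 and 666 at 2 days and 2734 and 3299.8 in untreated cells (log2 -2.14, adjusted p = 2e-08). Mitochondrial ribosomal proteins fell in 24 of 48 cases and rose in 1 (median -0.29), or in 2 without untreated replicate 1 and 0 without any 1 of the other 3 libraries. Respiratory chain genes fell in 11 of 32 cases (34.4%), against 23.8% of all genes, and rose in 0, against 21.0%. Their median was -0.08, and it was -0.03 without 2-day replicate 2 and 0.0095 without untreated replicate 1. Chaperone genes of the heat shock list fell in 12 of 18 cases and rose in 2, or in 1 without 2-day replicate 2. Hspd1, the mitochondrial HSP60, fell by 0.86 (adjusted p = 2.5e-07), while Cryab, a small heat shock protein, was at 240.4 and 238 at 2 days and 57.4 and 34.8 in untreated cells (log2 2.40, adjusted p = 5e-06).

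Lysosomal genes moved upward: 13 of 28 rose and 0 fell (median 0.46), or 12 and 2 without untreated replicate 2. Ctsd, the protease cathepsin D, was at 9344 and 9481 at 2 days, against 3708 and 2810.2 in untreated cells (log2 1.54, SE 0.14, adjusted p = 1.4e-06). Grn, progranulin, was at 4972 and 5139.6 at 2 days and 2129 and 1890.3 in untreated cells (log2 1.33, adjusted p = 7.4e-06). Both pairs lay apart. Psap, which encodes activators of lysosomal lipid breakdown, rose by 0.80 and Lamp2, a lysosomal membrane protein, by 0.96 (adjusted p = 1.8e-06 and 2.8e-06).

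Core pluripotency genes were split. Of 19 tested 10 fell and 5 rose (median -0.27); 3 rose without untreated replicate 2. Pou5f1, the central factor OCT4, was at 18902 and 17659 at 2 days, against 23170.5 and 22339 in untreated cells (log2 -0.32, adjusted p = 0.0033). Nanog was at 17573 and 16833 at 2 days and 15332 and 14325 in untreated cells (log2 0.21, adjusted p = 0.013). Sox2 did not pass, at 8490.3 and 8452 at 2 days and 8893 and 9555 in untreated cells (log2 -0.12, adjusted p = 0.18). The pairs lay apart for these genes, but no change reached 1.5-fold, and the Nanog call was lost without untreated replicate 2 (adjusted p = 0.081) or 2-day replicate 1 (adjusted p = 0.095). The RNA-binding repressor of let-7, Lin28a, fell by 1.92, the chromatin factor gene Utf1 by 1.13 and L1td1, an RNA-binding protein of LINE-1 origin, by 1.36 (adjusted p = 4.2e-08, 2.9e-07 and 8.6e-07).

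Genes of the naive state mostly rose, with 13 higher and 3 lower of 19 (median 0.50). The median was 0.25 without untreated replicate 2 and 0.73 without untreated replicate 1. Klf4, a naive-state transcription factor, was at 5377 and 5464 at 2 days and 3379.8 and 1915 in untreated cells (log2 1.09, adjusted p = 0.0003). Dppa3, a maternal factor that protects DNA from demethylation in the zygote, was at 256 and 248 at 2 days, against 54.5 and 14.2 in untreated cells (log2 3.12, SE 0.62, adjusted p = 0.0011). The untreated values of both genes were spread widely and still lay below both 2-day values. Zfp42 (REX1) fell by 0.40 and Nr0b1 (DAX1) by 0.54 (adjusted p = 9.9e-05 and 0.00015), and Esrrb did not pass (log2 0.16, adjusted p = 0.26). Fitted on the 2-day and untreated libraries alone, 8 of the naive genes rose.

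Genes of the formative and primed states fell in 9 of 16 cases and rose in 1 (median -0.69); in the fit on the 4 libraries alone 4 fell, and without untreated replicate 2 the count that rose was 2. The largest fall was that of Etv4, described with the FGF genes, and the member that rose was Cdh2, N-cadherin, by 1.41 (adjusted p = 0.00012).

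Of 15 genes of DNA methylation and its removal 5 fell and 3 rose, or 1 rose without 2-day replicate 2. Dnmt3b, a de novo methyltransferase, was at 1409 and 1438 at 2 days and 2732 and 3254 in untreated cells (log2 -1.07, adjusted p = 4.4e-07). Dnmt3l, its cofactor, was at 988 and 1022 at 2 days and 3614 and 5419.8 in untreated cells (log2 -2.14, adjusted p = 3.9e-05). Dnmt1, the maintenance enzyme, fell by 0.55 (adjusted p = 0.00045) and Tet2, which oxidises methylcytosine, rose by 0.49 (adjusted p = 0.0033). DNA methylation was not measured here.

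The 2-cell stage genes had the largest median change of the 41 lists. Of 32 listed, 20 were tested; 18 rose, each at least 2-fold, and 1 fell (median 2.87), or 0 fell without 2-day replicate 2. The member that fell was Eif1a, by 0.29 (adjusted p = 0.0084), or 0.054 without 2-day replicate 2. The median of the list was 2.10 without untreated replicate 2 and 3.52 without untreated replicate 1. In bulk RNA, more cells of the 2-cell-like kind and more RNA per such cell cannot be told apart. Zscan4c (chr7:11005745-11010547), which acts in telomere upkeep, was at 1301 and 1131 at 2 days, against 228 and 117 in untreated cells (log2 2.88, SE 0.26, adjusted p = 1.2e-06). Zscan4f was at 1829.9 and 1672 at 2 days and 324 and 145 in untreated cells (log2 3.01, adjusted p = 1.2e-06). Every 2-day library was above every untreated one, although the untreated libraries themselves were about 2-fold apart.

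Members of a family such as Zscan4 or Usp17l are near-identical, so the reads may be split among them and the values of single copies are uncertain. Usp17lb, of a family of deubiquitinases, was at 214 and 210.0 at 2 days and 30.1 and 20.3 in untreated cells (log2 3.05, adjusted p = 5.5e-06). Zfp352, a zinc finger gene known from the 2-cell embryo, was at 96.9 and 76.9 at 2 days and 28.6 and 5.97 in untreated cells (log2 2.60, adjusted p = 0.0013). With genes averaging at least 50 over the 16 libraries alone, 10 of the 11 remaining members rose. That mean takes in the 2-day, 1-day and withdrawal libraries, where the list median lay above that of untreated cells. Members can thus pass the filter through their rise, so this count is no check on low genes. The same holds for the filter at 10. The summed level of 6 markers of 2-cell-like cells in the table was 2239 and 1924 in the 2-day libraries, against 470.3 and 186 in the untreated libraries. Most of that sum came from Zscan4c and its near-identical relative Zscan4d, at 529 and 458 at 2 days and 156 and 54.2 in untreated cells. The sum therefore largely repeats the Zscan4 values. Of chromatin repressors, some of which are known to hold these genes silent, 13 of 25 fell and 1 rose (median -0.28), with 0 higher without untreated replicate 2 or either 2-day replicate. Chaf1a and Chaf1b, subunits of the chromatin assembly factor CAF-1, fell by 0.90 and 1.16 (adjusted p = 1.4e-06 and 4e-06), and Trim28, the KAP1 corepressor, by 0.39 (adjusted p = 0.00015).

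**Figure D3:**
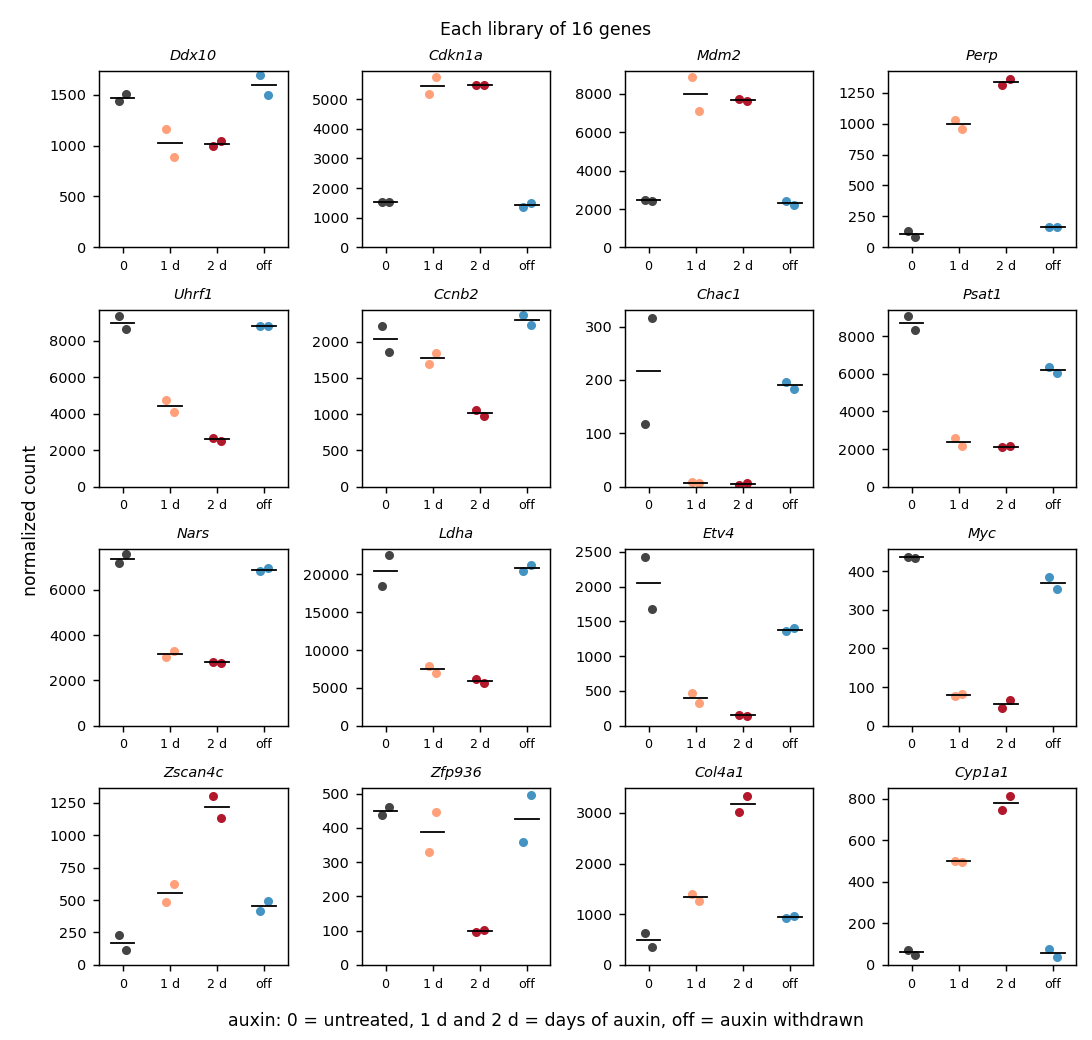
Normalized counts (vertical axes, from 0) of 16 genes in each library; points are libraries and bars the mean of 2, in untreated cells, after 1 and 2 days of auxin and after withdrawal. Cdkn1a stays near its 1-day level at 2 days, with 5492 and 5486 at 2 days and 5165 and 5747 at 1 day, while Ccnb2 is lower, with 1051 and 970.3 at 2 days and 1687 and 1849 at 1 day.

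A block on chromosome 4 that holds many zinc finger genes was lower in most of its genes; it was singled out after the values were seen. At chr4:145410245-147848366 (GRCm38), 25 genes were tested, of which 18 fell (16 protein-coding, 1 lincRNA and 1 processed transcript by annotation), 17 of them at least 2-fold, and 0 rose, also at an unadjusted p below 0.05 (median -1.49). The block holds genes of the KRAB zinc finger class, repressors many of which bind transposable elements. Gm13225, Zfp990 in RefSeq, was at 508 and 511 at 2 days, against 3167 and 5377 in untreated cells (log2 -3.01, SE 0.28, adjusted p = 1.6e-06). Rex2 was at 490.0 and 493 at 2 days and 2204 and 1850.2 in untreated cells (log2 -2.04, adjusted p = 2.2e-08). Zfp534 was at 71.0 and 88.8 at 2 days and 582 and 859 in untreated cells (log2 -3.14, adjusted p = 1.6e-05). The 2-day pairs were close and far below the untreated pairs. Many genes of this block are close copies of each other, so reads may be split among them. Gm13235 stood at 224 and 233 at 2 days and 174 and 170.4 in untreated cells and did not pass (log2 0.40, adjusted p = 0.3). The count was 16 to 18 of 25 lower when any 1 of the 4 libraries was left out.

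**Figure D4:**
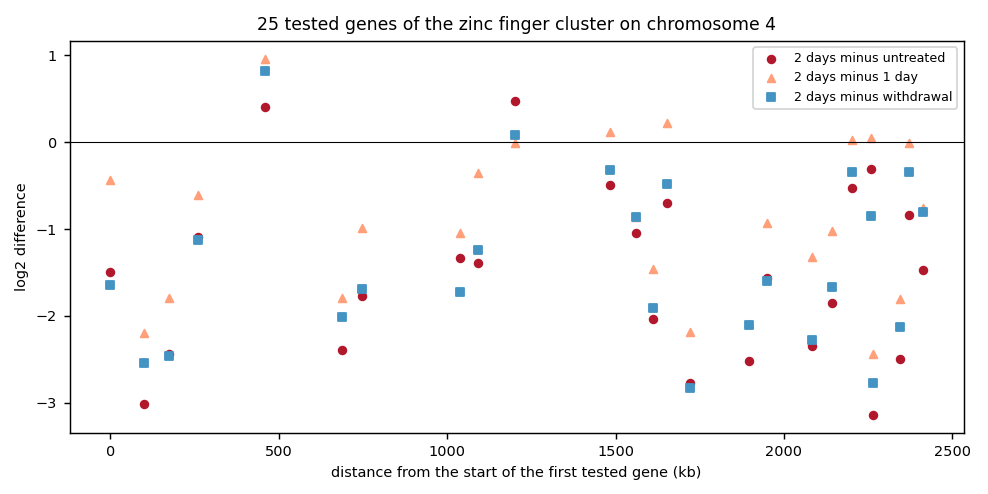
Log2 differences (vertical axis) of the 25 tested genes of the chromosome 4 block by distance in kb from the start of the first tested gene (horizontal axis), for 2 days minus untreated, minus 1 day and minus withdrawal. Most points lie below 0, with medians of -1.49, -0.93 and -1.64 in those 3 comparisons.

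Of 12 tested genes of the primitive endoderm list 7 rose and 0 fell (median 0.91); without untreated replicate 1 the count was 4. The members with the smallest p, Col4a1, Col4a2, Sparc and Lama1, encode basement membrane and matrix proteins. Col4a1 was at 3011 and 3338 at 2 days, against 639.7 and 356 in untreated cells (log2 2.73, SE 0.19, adjusted p = 1.9e-07). Lama1, a laminin chain, was at 2491 and 2733 at 2 days and 1213 and 427 in untreated cells (log2 1.86, adjusted p = 0.00022). The lineage factor gene Gata6 reached 24.0 and 11.1 at 2 days and 1.24 and 4.06 in untreated cells (log2 2.37, adjusted p = 0.015), and lost the call without untreated replicate 1 (adjusted p = 0.10) or 2-day replicate 1 (adjusted p = 0.12). Gata4 did not pass (log2 0.73, adjusted p = 0.13). The summed level of the 6 defining markers in the table was 152 and 166 in the 2-day libraries, against 80.2 and 81.1 in the untreated libraries; Foxa2 is not among the genes in the table. Their part in the matrix genes was not tested.

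Of 14 trophoblast genes 5 rose and 3 fell, or 3 and 1 without 2-day replicate 1. Cdh3, P-cadherin, was at 1232 and 1265 at 2 days and 179.7 and 259.8 in untreated cells (log2 2.52, adjusted p = 6.6e-07). Gata2 rose by 2.55 and Tfap2c by 1.38 (adjusted p = 1.4e-05 and 7e-05), while Tead4 fell by 0.75 (adjusted p = 3.9e-05). The summed level of 4 defining trophoblast markers overlapped between the groups, at 403 and 448 in the 2-day libraries and 232 and 565 in the untreated libraries. Neural genes were split, 5 higher and 4 lower of 12, with 2 lower without untreated replicate 1 or 2-day replicate 1. Among them Neurod1, a neuronal differentiation factor, was at 168 and 189.8 at 2 days and 21.1 and 23.4 in untreated cells (log2 2.95, adjusted p = 4.6e-07). Stmn2, a tubulin-binding protein, fell by 1.23 (adjusted p = 2.2e-08). Mesoderm and streak genes rose in 3 and fell in 1 of 13 cases, with 3 lower without untreated replicate 1 and 0 lower when either 2-day replicate was left out. Germline genes rose and fell in 2 and 2 of 17 cases.

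Cell adhesion genes rose in 14 of 20 cases and fell in 2 (median 0.74). Cdh1, E-cadherin, was at 14212 and 15311 at 2 days, against 6488 and 5688 in untreated cells (log2 1.28, SE 0.08, adjusted p = 7.7e-08). Cldn4, a tight junction claudin, was at 3289 and 3367 at 2 days and 1123 and 804 in untreated cells (log2 1.81, adjusted p = 2.8e-07). Each 2-day library was more than 2-fold above each untreated library for both. F11r, the junctional adhesion molecule A, rose by 1.29 (adjusted p = 5e-06). Itga5, a fibronectin receptor chain, fell by 0.86 and Gja1, connexin 43, by 0.79 (adjusted p = 3.1e-05 and 0.00031).

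Readouts of FGF and ERK signalling differed between members although the MEK inhibitor was present in both groups. Of 17 tested 8 fell and 3 rose (median 0.04), so the median and the counts point different ways. Etv4, an ETS factor induced by FGF, was at 156 and 144 at 2 days, against 2428 and 1685 in untreated cells (log2 -3.75, SE 0.16, adjusted p = 4.6e-09). Spry4, a feedback inhibitor, was at 33.7 and 20.3 at 2 days and 748 and 584 in untreated cells (log2 -4.61, adjusted p = 1.5e-08). Both genes were more than 10-fold lower at 2 days. The ligand gene Fgf4 and the receptor gene Fgfr1 rose by 0.47 and 0.60 (adjusted p = 2.2e-05 and 3.1e-05). Fos, an immediate early gene, was at 669 and 649 at 2 days and 168 and 75.0 in untreated cells (log2 2.54, adjusted p = 6.2e-05).

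In the Nodal pathway 8 of 16 genes rose and 0 fell (median 0.42), or 9 and 3 without untreated replicate 1. The ligand gene Nodal was at 2125 and 2197 at 2 days and 1157 and 1187 in untreated cells (log2 0.88, adjusted p = 8.6e-06), and Pcsk6, a convertase that processes it, rose by 0.75 (adjusted p = 2.9e-06). WNT targets rose in 4 and fell in 2 of 16 cases, or in 1 and 4 without untreated replicate 2 and 2 rose without 2-day replicate 1, with the feedback gene Axin2 lower by a log2 change of -0.94 (adjusted p = 0.0011). LIF and STAT3 genes rose in 6 and fell in 3 of 14 cases; the count of those that rose was 2 without untreated replicate 2, 3 without 2-day replicate 1, 2 without 2-day replicate 2 and 1 in the fit on the 4 libraries alone. The count of those that fell was 1 without untreated replicate 1 or either 2-day replicate. Of 25 imprinted genes 6 rose and 5 fell, or 3 and 3 without 2-day replicate 1, among them Nnat at 23 and 34 at 2 days and 126 and 213 in untreated cells (log2 -2.51, adjusted p = 3.3e-06), and Meg3, a maternally expressed long RNA, at 8233 and 9620.2 at 2 days and 5460.2 and 3593 in untreated cells (log2 1.01, adjusted p = 0.00013). The shares of imprinted genes that rose and fell, 24% and 20%, lay near the 21.0% and 23.8% of all genes. So did the 25% of WNT targets that rose. Antigen presentation and interferon genes rose in 3 and fell in 2 of 17 cases. Tap1, the peptide transporter that p53 is known to induce, was at 260.4 and 349 at 2 days and 23.7 and 18.3 in untreated cells (log2 3.79, adjusted p = 5.9e-07), and Ddx58, the RNA sensor RIG-I, fell by 1.91 (adjusted p = 1e-07).

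Indole compounds can activate the aryl hydrocarbon receptor (AHR), and its textbook targets were therefore listed. Of 10 tested 4 rose and 1 fell; 2 rose without 2-day replicate 1, and 2 fell without untreated replicate 1 and 0 without any 1 of the other 3 libraries. Cyp1a1 (chr9:57687928-57703824, plus strand) was at 749 and 813 at 2 days, against 74.5 and 49.8 in untreated cells (log2 3.66, SE 0.25, adjusted p = 1.4e-07). Cyp1b1 was at 153 and 166 at 2 days and 13.6 and 14.2 in untreated cells (log2 3.43, adjusted p = 4.6e-07). Both encode cytochromes that oxidise xenobiotics, and each 2-day library lay at least 10-fold above each untreated one. Nqo1, a quinone reductase, fell by 0.30 (adjusted p = 0.047), close to the threshold, and lost the call when any 1 of the 4 libraries was left out (adjusted p = 0.069, 0.16, 0.076 and 0.22). Cyp1a1 was at 75.1 and 38.4 after withdrawal. No untagged cells in auxin were analysed here, so the part of auxin itself was not tested.

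Fewer genes differed between 2 days and 1 day than between 2 days and untreated cells. Between 2 days and 1 day 754 genes differed (5.65%), of which 210 were higher (1.57%) and 544 lower (4.07%) at 2 days. Of these, 66 were at least 2-fold higher (0.494%) and 82 at least 2-fold lower (0.614%). Those counts depend on single libraries: without 2-day replicate 1 or 2 they were 43 and 195 or 30 and 176, and without 1-day replicate 1 or 2 they were 707 and 819 or 222 and 732. Fitted on those 4 libraries alone, limma called 0 in either direction, with 1799 at an unadjusted p below 0.05.

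Cell cycle genes were lower at 2 days than at 1 day. Of 36 replication genes 21 were lower at 2 days than at 1 day and 0 higher (median -0.37), and of 30 mitotic genes 21 were lower and 0 higher (median -0.46), against 4.07% of all genes. With 1 library left out in turn, 10 to 27 of the replication genes and 11 to 26 of the mitotic genes were lower, and fewest without 2-day replicate 2. Ccnb2 was at 1051 and 970.3 at 2 days, against 1687 and 1849 at 1 day (log2 -0.81, adjusted p = 0.00041), and Uhrf1 at 2642 and 2525 at 2 days, against 4733 and 4085 at 1 day (log2 -0.77, adjusted p = 0.00015). The 2-day pairs lay below the 1-day pairs.

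Of the 8 p53 feedback targets 3 were lower at 2 days than at 1 day and 0 higher (median -0.27), namely Trp53inp1 (log2 -0.53, adjusted p = 0.0087), Ppm1d (log2 -0.38, adjusted p = 0.026) and Ccng1 (log2 -0.26, adjusted p = 0.032). Without 2-day replicate 1 this count was 1, without 2-day replicate 2 it was 0, and without 1-day replicate 1 it was 2. Of the 12 arrest targets 1 was higher, Sfn, which encodes 14-3-3 sigma (log2 0.94, adjusted p = 0.0079), and it lost the call without 2-day replicate 1. Of the 15 death targets and the 18 repair and metabolism targets 1 each was lower, Eda2r (log2 -0.45, adjusted p = 0.037) and Ckap2 (log2 -0.49, adjusted p = 0.0058), and both counts were 0 when either 2-day replicate was left out; that of the death targets was also 0 without 1-day replicate 1. Mdm2 and Cdkn1a did not pass between those times (log2 -0.05 and 0.01, adjusted p = 0.81 and 0.96).

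Of the 25 genes tested in the chromosome 4 block 15 were lower at 2 days than at 1 day (median -0.93). Gm13225 was at 508 and 511 at 2 days and 1712 and 3181 at 1 day (log2 -2.19, adjusted p = 0.00078), and Rex2 at 490.0 and 493 at 2 days and 1298 and 1413 at 1 day (log2 -1.46, adjusted p = 2.5e-05). Zfp936, a zinc finger gene outside that block (chr7:43114229-43192109), was at 96.6 and 101 at 2 days and 328 and 446 at 1 day (log2 -1.94, adjusted p = 7.5e-05). Its untreated libraries held 439 and 461, so 1 of the 1-day libraries lay within the untreated pair and the other below it. Among genes higher than at 1 day, Thsd4, a matrix-linked protein, was at 111 and 134 at 2 days and 23.7 and 6.94 at 1 day (log2 3.14, adjusted p = 0.032). Col4a1 was at 3011 and 3338 at 2 days and 1399 and 1269 at 1 day (log2 1.25, adjusted p = 0.0023).

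**Figure D5:**
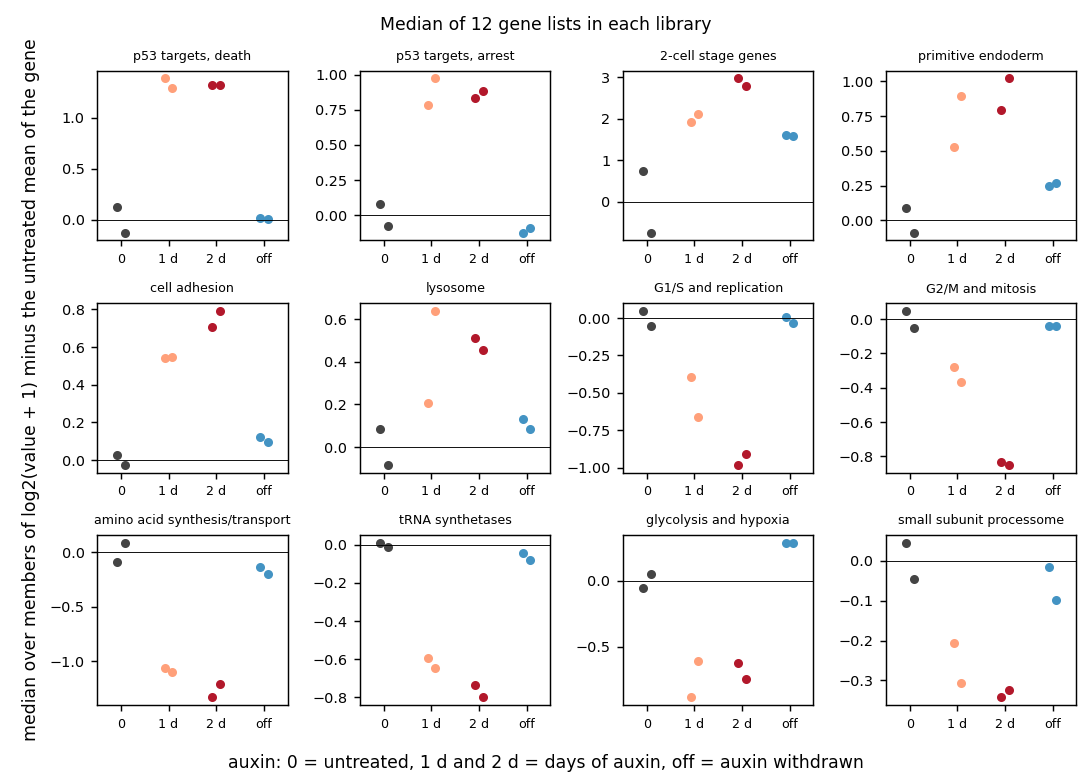
Median over the tested members of 12 gene lists of log2(value + 1) minus the untreated mean of each gene (vertical axes, separate scales), for each library in untreated cells, after 1 and 2 days of auxin and after withdrawal. Replication and mitosis medians are lowest at 2 days, and medians after withdrawal lie near those of the untreated libraries in most lists, the 2-cell list excepted.

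Against withdrawal, 5516 genes differed (41.3%), with 2556 higher (19.1%) and 2960 lower (22.2%) at 2 days. At least 2-fold, 990 were higher (7.41%) and 628 lower (4.70%). Perp was at 1312 and 1364 at 2 days, against 166 and 167 after withdrawal (log2 3.00, adjusted p = 6.7e-08), and Chac1 at 3.57 and 6.52 at 2 days, against 197 and 183 after withdrawal (log2 -5.02, adjusted p = 8.7e-07). The 2 comparisons share the 2-day libraries. Over the 2-cell genes the median was 2.87 against untreated cells and 1.20 against withdrawal. For Zscan4c the withdrawal libraries held 416 and 495, still above the untreated pair. Egr1, an immediate early gene, was at 212 and 82.4 at 2 days, against 2559 and 1960.1 after withdrawal (log2 -4.07, adjusted p = 0.0081). Against untreated cells Egr1 went the other way, higher at 2 days by 2.52 on the log2 scale. It was not called there in the main fit, but limma called it on the compared libraries alone (adjusted p = 0.018). Its replicates were far apart at 2 days and at 1 day, where they stood at 611 and 16.4. Bnip3, a hypoxia-induced mitophagy receptor, was at 151 and 147 at 2 days, against 1074 and 1214 after withdrawal (log2 -2.93, adjusted p = 1.5e-06).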

How the data were processed

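RNA-seq of polyadenylated RNA was measured in 16 libraries, 2 for each of 8 groups. The authors deposited 1 table of normalized counts per gene, used here as a signal that is not whole reads; per the submitters' processing notes, Trim Galore, STAR, RSEM and DESeq2 and the build mm10 were named, with versions not given in the sources used here. Genes averaging 10 or more across all libraries were kept (13355), and log2(value + 1) was fitted with limma 3.58.1 (R 4.3.3) as a mean per group over all 16 libraries, with an intensity trend and 8 residual degrees of freedom. The contrasts were 2 days minus untreated, minus 1 day and minus withdrawal, two-sided, with Benjamini-Hochberg adjustment over all genes tested and calls at an adjusted p below 0.05. Fold changes on the log2(value + 1) scale understate those of low genes. The depth behind a value was read from the steps between low values; counting error sets the precision of low genes. Gene positions came from GENCODE M21 for 14467 IDs, and 85 had none.

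Members and gene lists were chosen with earlier results of these data known. Genes are named by fixed lists of textbook genes, the 15 largest rises and falls among genes averaging at least 50 without overlap between groups, the 5 most abundant of those changed at least 2-fold, the 5 list members with the smallest p and those against the list's direction, and the 5 largest in each direction against 1 day and withdrawal. Predicted-gene names, such as those made of Gm and digits, were left out of the rankings by change and by abundance. Of the 160 genes named, 123 met this rule, and the other 37 were picked after their values were seen. The fit was tested on simulated data, with 200 of 13355 genes changed for the comparison of 2 days with untreated. The simulated noise of a gene was the same in all groups, so unequal spread between pairs was not checked. Alternatives were pseudocounts of 0.5 and 5, other filters and scalings, library weights, no trend, a replicate block, the compared libraries alone and leaving out each library. Scripts in Python 3.11.15 used pandas 2.3.3 and NumPy 2.4.6.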

Additional observations from a re-analysis of the deposited data

Results flagged for a closer look

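For these named genes the change from untreated cells differed between 2 days and 1 day of auxin, by the limma test of 2 days minus 1 day (adjusted p below 0.05); because both times share the untreated libraries, this is the difference between the 2 times. The values are log2 differences, 2 days minus 1 day, and rest on 2 libraries a time. In a fit on those 4 libraries alone none of the 13355 genes was called (0, with 1799 at an unadjusted p below 0.05). Cell cycle and replication genes were lower at 2 days: Ccnb1 at -0.56, Ccnb2 at -0.81, Ccne1 at -0.42, Cdc6 at -0.61, Cdk1 at -0.31, Chaf1a at -0.51, Chaf1b at -0.53, Kif20a at -0.55, Mcm6 at -0.44, Pcna at -0.46, Rrm2 at -0.66, Top2a at -0.47 and Uhrf1 at -0.77. Zinc finger genes were lower by larger amounts: Gm13225 at -2.19, Rex2 at -1.46, Zfp534 at -2.44 and Zfp936 at -1.94. Genes of glycolysis were lower: Eno1 at -0.32, Eno1b at -0.36, Ldha at -0.35, Pkm at -0.26 and Tpi1 at -0.48. Of p53 targets, Trp53inp1 at -0.53, Eda2r at -0.45, Ckap2 at -0.49, Ccng1 at -0.26 and Ppm1d at -0.38 were lower and Sfn at 0.94 was higher. Other genes lower at 2 days were these: Axin2 at -0.92, Etv4 at -1.40, L1td1 at -0.46, Nkx1-2 at -2.31 and Stmn2 at -0.28. Of the matrix and adhesion genes named, 1 was lower at 2 days, Gja1 at -0.69, and the others were higher: Cdh1 at 0.41, Cdh2 at 0.90, Cdh3 at 1.09, Col4a1 at 1.25, Col4a2 at 1.11, F11r at 0.54, Fn1 at 0.28 and Thsd4 at 3.14. Further genes were higher at 2 days: Bnip3 at 1.09, Meg3 at 0.69, Nr0b1 at 0.46, Pcsk6 at 0.31, Ulk1 at 0.40, Utf1 at 0.58 and Zscan4c at 1.14. Bnip3 and Utf1 lay below untreated at 2 days (log2 -1.64 and -1.13) and still above the 1-day level, and so did Nr0b1.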

How the results depend on the processing

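The numbers of genes higher and lower than in untreated cells kept within 1.5 times under every alternative, leaving out each library included. In a fit on the 2-day and untreated libraries alone 1941 were higher and 2305 lower. With library weights 2174 were higher and 2642 lower. The count at least 2-fold higher was 729 among genes averaging at least 50, where fewer genes were tested. With upper-quartile scaling the median change of all genes moved to 0.05, and 3212 genes were higher and 2728 lower. The comparison with 1 day was less stable: 40 higher and 202 lower with library weights, 343 lower without an intensity trend, and 0 and 0 in a fit on the 4 libraries alone, with 1799 at an unadjusted p below 0.05. Leaving out 1 library gave 30 to 707 higher and 176 to 819 lower; the cause was not tested. Deviations of same-numbered libraries correlated at -0.06 to 0.07 over the 28 pairs of groups. Such values cannot show whether same-numbered libraries shared a culture or a batch. A fit with the replicate number as a block gave 2779 higher and 3140 lower. Leaving out untreated replicates moved 2 uncalled genes across 0: Esrrb lay between -0.012 and 0.33 and Pttg1 between -0.089 and 0.94 on the log2 scale. Of 1148 list counts under alternatives 1056 stayed within 1.5 times the count reported. Of the 152 named genes that were tested under all 14 alternatives, 140 kept their call; the other 8 averaged below 50 and were left out by 1 of them. The depth, about 13.5 to 16.7 M reads, limits genes near the floor, such as Chac1.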

Other observations

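Gene families were counted by the start of the gene symbol and chosen after the values were seen; some of their members, such as Klf4 and Eif1a, are also in the lists described. Alpha-type 20S proteasome genes (Psma) fell in 8 of 8 cases, the regulatory particle genes (Psmd) in 10 of 14 and the beta-type genes (Psmb) in 5 of 9, against 23.8% of all genes. Genes of the CCT chaperonin, which folds actin and tubulin, fell in 7 of 8 cases, and exosome genes (Exosc), which process and degrade RNA, in 7 of 9. Translation initiation factor genes (Eif) fell in 33 of 51 cases and rose in 4. Nucleoporin genes (Nup) fell in 14 of 21 cases, splicing factor genes of the Srsf group in 8 of 11 and snoRNA host genes (Snhg) in 6 of 8. Klf transcription factor genes rose in 7 of 14 cases, Galnt genes, which start O-glycosylation, in 5 of 10 and Atg autophagy genes in 8 of 18, against 21.0% of all genes.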
